A study of Mus musculus with 4 samples.

Results

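Stromal cells of the heart secrete a set of extracellular proteins that organise the matrix around muscle cells. Here 10 such genes were followed in mouse hearts under pressure load. The load came from transverse aortic constriction (TAC), an operation that narrows the aorta, performed 1 week earlier. The genes were Islr, Htra3, Itih5 and Adamtsl2, which encode secreted proteins of 4 different families, and Dcn, Bgn, Lum, Fmod, Prelp and Ogn, which encode small leucine-rich proteoglycans. They were taken as the probe sets whose only annotated gene symbol is one of these 10 names. Each had 1 such probe set, and all 10 were among the 16708 genes kept, out of 19938 with a probe set of their own. The set was chosen because the first 4 genes read higher in the knockout hearts in these same data. Their differences between genotypes are therefore given as a description, without a p-value.

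The series held 3 hearts of MAFbx KO mice and 1 heart of a wild type mouse, each on its own Affymetrix Mouse Gene ST array, and the hearts of both genotypes had been through TAC for 1 week. MAFbx, also known as atrogin-1 and encoded by Fbxo32, is the substrate-binding part of a muscle ubiquitin ligase. The sources used here give no strain, age, sex or extent of the deletion, and unloaded hearts were not analysed here. The comparison shows how pressure-loaded hearts without MAFbx differ from a loaded heart that has it, and not what the load itself did.

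Small leucine-rich proteoglycans consist of a protein core of leucine-rich repeats, most of them with glycosaminoglycan chains attached. They bind collagen fibrils and set their spacing and thickness, and several also bind growth factors such as transforming growth factor beta (TGF-beta). In the heart they are made mainly by fibroblasts. Among the other secreted proteins, those of Htra3, Itih5 and Adamtsl2 act on the same matrix by cleaving it or by binding hyaluronan and microfibrils.

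All values are levels on the log2 scale after RMA, the authors' normalization, so a difference of 1 is a 2-fold difference. Levels of different genes are not comparable with each other, because each probe set has its own brightness. A log2 fold change is the mean of the 3 knockout arrays minus the wild type array, with the standard error of the limma fit across all genes kept. A single array cannot show a spread, so the wild type group was assumed to vary as much as the knockout group. The labels number the hearts but do not state that each came from a separate animal, so the spread may be partly technical.

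The arrays held an unequal split of sex-linked transcripts. Xist, the RNA of the inactive X chromosome, read 9.18, 9.52 and 3.20 on knockout arrays 1, 2 and 3, against 4.13 on the wild type array. The Y-linked gene Eif2s3y read 3.31, 3.64 and 8.49 on the knockout arrays, against 8.57 on the wild type array. Knockout 3 therefore shared the sex-linked pattern of the wild type heart, and knockouts 1 and 2 had the opposite one. The difference between knockout 3 and the wild type array is given beside the results for this reason. A fit with Xist as a covariate entered it as high on knockouts 1 and 2 and low on the other arrays. By its construction that fit gives every gene the difference of knockout 3 minus the wild type array. It is the same comparison and not a second check. Fbxo32 read 5.65, 5.61 and 5.56 on the knockout arrays, against 7.54 on the wild type array, lower in each knockout heart as labelled. Where its probe set lies relative to the deleted stretch was not analysed here. Markers of cardiomyocytes were present on every array, with a summed level of 16.3 to 16.5 over 10 of 10 markers (log2 of the sum).

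The 4 genes on which the set was chosen lie apart in the genome, on chromosomes 9, 5 and 2. The 250 bases before the annotated start of each are printed from RefSeq (GRCm38.p6), 5′ to 3′ on the strand of the gene, because these are the genes that differed together. Promoter windows were found for 8 of the 10 genes. The capitals mark matches to short motifs searched in all windows.
Islr, chr9:58158555-58158804, minus strand: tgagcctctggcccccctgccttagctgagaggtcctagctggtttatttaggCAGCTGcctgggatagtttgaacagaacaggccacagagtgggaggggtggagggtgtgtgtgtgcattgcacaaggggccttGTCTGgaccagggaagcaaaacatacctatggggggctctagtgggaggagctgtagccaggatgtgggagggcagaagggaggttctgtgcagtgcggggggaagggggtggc
Htra3, chr5:35679781-35680030, minus strand: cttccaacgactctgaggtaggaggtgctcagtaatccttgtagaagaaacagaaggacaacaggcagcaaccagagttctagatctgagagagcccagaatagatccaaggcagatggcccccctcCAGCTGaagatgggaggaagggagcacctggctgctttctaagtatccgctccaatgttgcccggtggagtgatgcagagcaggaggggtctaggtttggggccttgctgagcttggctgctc
Itih5, chr2:10153293-10153542, plus strand: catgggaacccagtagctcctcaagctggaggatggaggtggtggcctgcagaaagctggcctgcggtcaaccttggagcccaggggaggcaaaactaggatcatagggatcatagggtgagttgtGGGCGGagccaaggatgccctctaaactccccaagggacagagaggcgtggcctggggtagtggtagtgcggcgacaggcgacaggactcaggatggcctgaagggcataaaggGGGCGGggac
Adamtsl2, chr2:27079129-27079378, plus strand: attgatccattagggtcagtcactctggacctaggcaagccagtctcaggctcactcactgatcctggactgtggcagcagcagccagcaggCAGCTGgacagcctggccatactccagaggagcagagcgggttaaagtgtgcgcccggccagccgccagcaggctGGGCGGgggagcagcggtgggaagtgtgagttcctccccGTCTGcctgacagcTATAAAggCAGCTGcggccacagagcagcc
The AP-1 motif, searched as TGANTCA on both strands, was in 0 of 8 windows and in 6.75% of all 32851 windows of this length. The E-box that Tcf21 and other basic helix-loop-helix factors bind, searched as CAGCTG and identical on both strands, was in 5 of the 8 windows, those of Islr, Htra3, Adamtsl2, Bgn and Ogn, and in 13% of all. The Smad motif, searched as CAGAC on both strands, was in 4 of 8 windows and in 42.2% of all. The GC box, searched as GGGCGG on both strands, was in 3 of 8 windows and in 32.7% of all. The TATA box, searched as TATAAA on the strand of the gene, was in 2 of 8 windows and in 7.59% of all. In the Adamtsl2 window its first base stood at -30 from the start, between a Smad motif match and an E-box match. No 2 of the matches in the printed windows overlap. These matches describe the letters of the windows only, and no binding was measured.

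Islr, Htra3, Itih5 and Adamtsl2 read about 1 log2 unit or more higher in the knockout hearts, and on each of these genes the lowest knockout array lay clearly above the wild type array. Islr encodes meflin, a protein with leucine-rich repeats and an immunoglobulin domain found on mesenchymal stromal cells and fibroblasts. It read 8.51, 8.59 and 8.75 on knockout arrays 1, 2 and 3, against 7.39 on the wild type array. The knockout arrays lay within 0.24 of each other, and the smallest gap to the wild type array was 1.12. The 3 knockout hearts averaged 8.62 ± 0.12 (SD, n = 3), 2.34-fold higher, with a log2 fold change of 1.23 (SE 0.18).

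Htra3 encodes a secreted serine protease that in mouse work has been reported to dampen TGF-beta signalling. Its levels were 8.26, 7.92 and 7.97 on the knockout arrays, against 7.01 on the wild type array. It is the one gene of the 10 for which knockout 1 gave the highest level of the 3 knockout arrays. The 3 knockout hearts averaged 8.05 ± 0.18 (SD, n = 3), 2.06-fold higher, with a log2 fold change of 1.04 (SE 0.20).

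Itih5 encodes a heavy chain of the inter-alpha-trypsin inhibitor family, whose members bind hyaluronan. It read 6.10, 6.69 and 6.55 on the knockout arrays, against 5.18 on the wild type array. The wild type level stood about 1 log2 unit above the filter on dim genes at 4.10, and RMA compresses differences between dim signals. The 3 knockout hearts averaged 6.45 ± 0.31 (SD, n = 3), with a log2 fold change of 1.27 (SE 0.25), the largest of the 10.

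Adamtsl2 encodes a secreted glycoprotein related to the ADAMTS proteases but without their protease domain, which binds fibrillin-1 and the latent TGF-beta binding protein LTBP1. Its levels were 7.82, 8.23 and 8.40 on the knockout arrays, against 6.96 on the wild type array. The 3 knockout hearts averaged 8.15 ± 0.30 (SD, n = 3), 2.28-fold higher, with a log2 fold change of 1.19 (SE 0.25). Over all genes kept, 18 had a log2 fold change of at least 1 towards the knockout, 0.108% of those tested, and these 4 are among them by the way they were chosen.

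**Figure D1:**
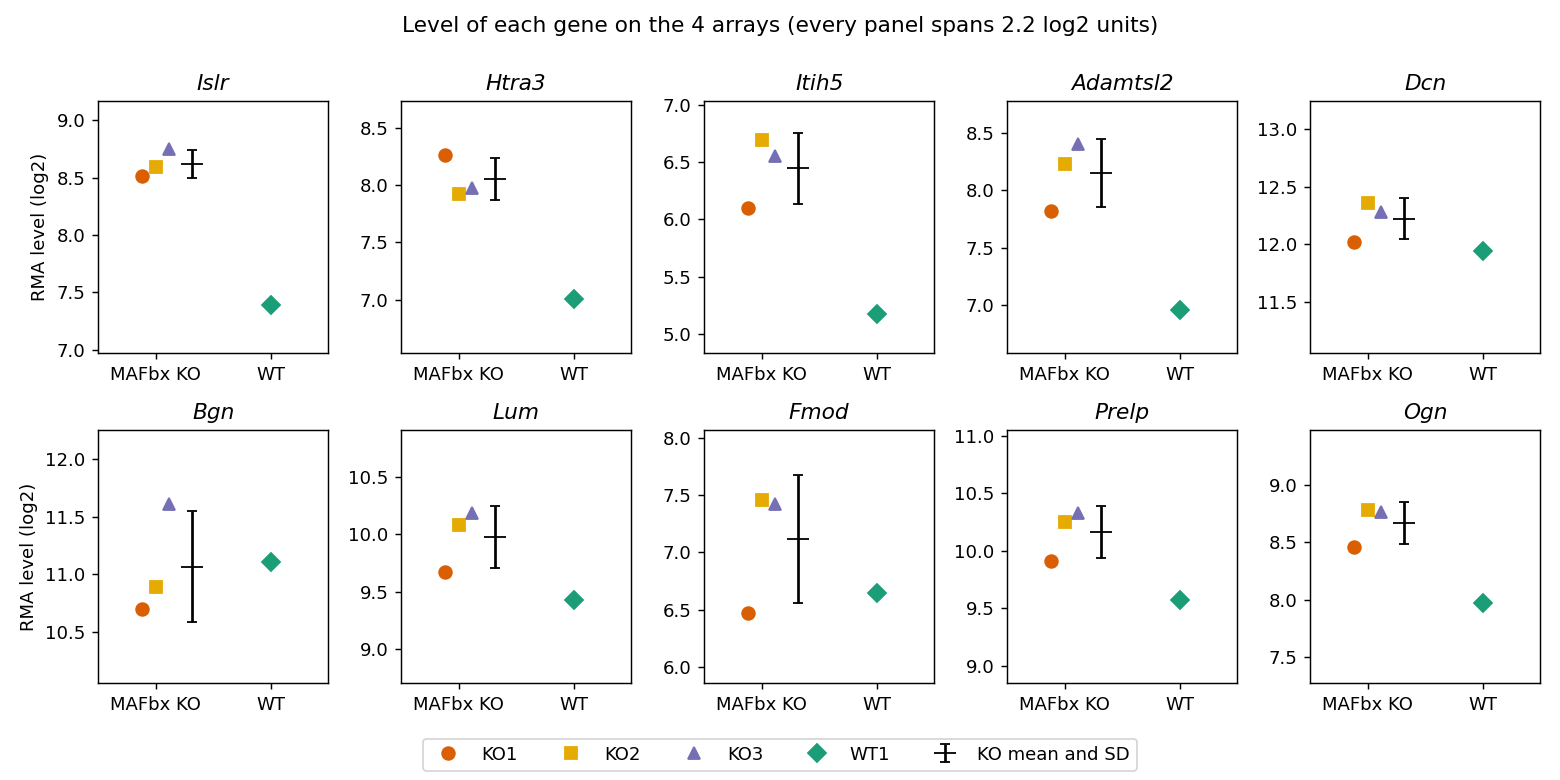
RMA level (log2) of each of the 10 genes, with the 3 MAFbx KO arrays and their mean and SD on the left of each panel and the wild type array on the right. The 3 knockout symbols lie above the wild type symbol in 8 panels, while the Bgn and Fmod panels have the wild type symbol inside the knockout range.

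The leucine-rich proteoglycans gave smaller differences, and they did not all go the same way on every array. Ogn, Prelp, Lum and Dcn read higher on all 3 knockout arrays than on the wild type array, by amounts that differed between the genes. In all, 8 of the 10 genes had the 3 knockout arrays above the wild type array and 0 had them below, where 24.2% of all genes kept lay above and 24.2% below. As the set was chosen on this contrast, that count is not evidence about it. Over all genes kept, limma called 1 at an adjusted p under 0.05, or 0.00599% of them, and that gene was Hmox1, lower in the knockout hearts.

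Ogn encodes osteoglycin, also called mimecan, a proteoglycan that takes part in collagen fibril assembly. It read 8.46, 8.78 and 8.76 on the knockout arrays, against 7.97 on the wild type array. The 3 knockout hearts averaged 8.67 ± 0.18 (SD, n = 3), 1.62-fold higher, with a log2 fold change of 0.70 (SE 0.20), the largest among the leucine-rich proteoglycans of the set. Its smallest gap to the wild type array, on knockout 1, was 0.49.

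Prelp encodes a proteoglycan with a basic, heparin-binding end that links basement membranes to collagen. It read 9.91, 10.25 and 10.33 on the knockout arrays, against 9.57 on the wild type array. Lum, the gene of the keratan sulfate proteoglycan lumican, read 9.67, 10.08 and 10.18 on the knockout arrays, against 9.43 on the wild type array. Both genes followed almost the same course, lowest on the wild type array, next on knockout 1 and highest on knockout 3. Their log2 fold changes were 0.59 (SE 0.22) for Prelp and 0.55 (SE 0.24) for Lum, and their profiles, each centred on its 4-array mean, differed by a root mean square of 0.04, the smallest difference of any pair among the 10.

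Dcn encodes decorin, which carries 1 glycosaminoglycan chain, coats collagen fibrils and binds TGF-beta. It read 12.02, 12.36 and 12.28 on the knockout arrays, against 11.94 on the wild type array. The groups did not overlap, but the gap on knockout 1 was only 0.08, smaller than the spread among the knockout arrays. The 3 knockout hearts averaged 12.22 ± 0.18 (SD, n = 3), 1.21-fold higher, with a log2 fold change of 0.28 (SE 0.20).

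Fmod encodes fibromodulin, a keratan sulfate proteoglycan that shapes collagen fibrils. Its levels were 6.47, 7.46 and 7.42 on the knockout arrays, against 6.65 on the wild type array. Knockout 1 lay below the wild type array, while knockouts 2 and 3 lay 0.81 and 0.77 above it. The log2 fold change of 0.47 (SE 0.38) was 0.79 without knockout 1 and 0.32 without knockout 3, and the knockout SD of 0.56 was larger than that of 98.6% of the genes kept.

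Bgn, on the X chromosome, encodes biglycan, a close relative of decorin, which can also activate Toll-like receptors 2 and 4 when it is released from the matrix. It read 10.70, 10.89 and 11.61 on the knockout arrays, against 11.11 on the wild type array. Knockouts 1 and 2 lay 0.41 and 0.22 lower than the wild type array, and knockout 3 lay 0.50 higher. The log2 fold change of -0.04 (SE 0.34) was 0.14 without knockout 1, 0.05 without knockout 2 and -0.32 without knockout 3, so its sign rests on single arrays. By rank alone, knockouts 1 and 2 were the lowest arrays, the arrays that the sex-linked split sets apart. The wild type array nevertheless lay nearer to them, at gaps of 0.41 and 0.22, than to knockout 3 at 0.50. The levels of Bgn therefore did not place knockout 3 with the wild type array as the sex-linked transcripts did. With Xist as a covariate the difference of Bgn was 0.50, which is knockout 3 minus the wild type array again.

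Over the 10 genes the median log2 fold change was 0.65, against 0.00 over all genes kept. The median difference from the wild type array was 0.42 on knockout 1, 0.81 on knockout 2 and 0.78 on knockout 3. Within the sex-linked pattern that the wild type heart shares, knockout 3 minus the wild type array was 1.36 for Islr, 0.96 for Htra3, 1.37 for Itih5 and 1.44 for Adamtsl2. The same difference was 0.79 for Ogn, 0.77 for Fmod, 0.76 for Prelp, 0.75 for Lum, 0.50 for Bgn and 0.34 for Dcn. All 10 genes thus read higher on knockout 3 than on the wild type array, which is 1 array against 1 and carries no test. Over all genes kept the median of this difference was 0.0. The set was chosen on a contrast that holds both of these arrays, so the count is not a separate check.

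The knockout hearts were also unequally alike in these genes. Islr had a knockout SD larger than that of 36.4% of the genes kept and Dcn one larger than that of 58.6%, while Bgn lay above 97.4% of them. Knockout 1 was the lowest of the 3 knockout arrays for 9 genes, the exception being Htra3. The spread of Bgn came from knockout 3, which stood 0.82 above the mean of the other knockout arrays, whereas that of Fmod came from knockout 1.

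The 6 proteoglycans belong to a larger family, and most of them lie beside relatives in the genome, with no other protein-coding gene between them in the GRCm38.p6 gene table. On chromosome 13 Ecm2, Aspn, Omd and Ogn follow each other, and all 4 had a higher knockout mean. Of all 16708 genes kept, 8408 did. Ogn belongs to the chosen set, so the count is not evidence about the region. Omd, the gene of osteomodulin, read 4.44, 4.28 and 4.35 on the knockout arrays, against 3.46 on the wild type array. Its wild type level lay below the filter level, so its difference of 0.90 (log2, SE 0.17, limma adjusted p = 0.390) comes from a dim probe set. Its 4-array mean of 4.13 passed the filter at 4.10 only through the knockout arrays. Ecm2, which encodes a matrix protein with leucine-rich repeats, read 6.91, 7.72 and 7.59 on the knockout arrays, against 6.60 on the wild type array (log2 fold change 0.81, SE 0.32, limma adjusted p = 0.844). Aspn, the gene of asporin, read 7.95, 8.67 and 10.07 on the knockout arrays, against 8.24 on the wild type array, so that knockout 1 lay below and knockout 3 far above it (log2 fold change 0.66, SE 0.68, limma adjusted p = 0.970).

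On chromosome 10 Dcn and Lum lie next to Kera and Epyc, which encode proteoglycans known from cornea and cartilage. Kera was near the filter level at 4.32, 4.46 and 3.92 on the knockout arrays, against 4.11 on the wild type array. Epyc read 5.15, 6.0 and 5.06 on the knockout arrays, against 5.61 on the wild type array. On both genes the wild type array lay within the knockout range. On chromosome 1 Optc, Prelp and Fmod follow each other, and Optc, a gene known from the eye, read 4.45, 3.98 and 4.31 on the knockout arrays, against 4.28 on the wild type array. Islr lies next to its relative Islr2, which read 5.52, 5.64 and 5.56 on the knockout arrays and 5.56 on the wild type array.

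**Figure D2:**
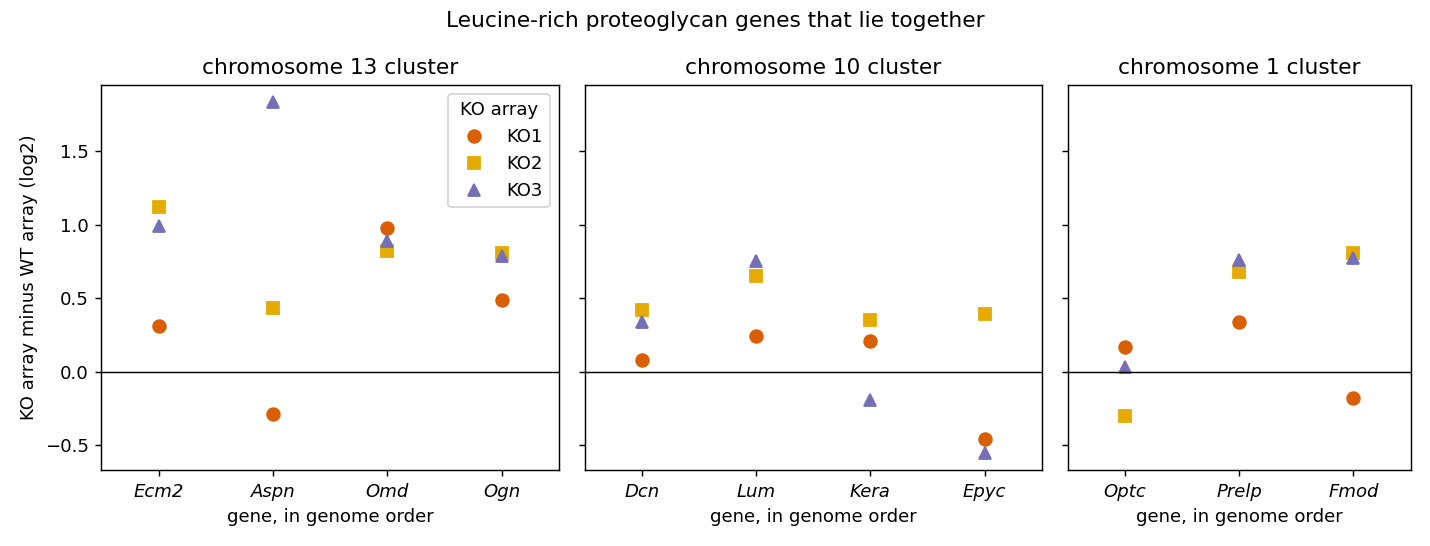
Difference between each KO array and the WT array (log2, y axis) for leucine-rich proteoglycan genes that neighbour each other on chromosomes 13, 10 and 1, in genome order (x axis). All 3 symbols lie above 0 for Ecm2, Omd, Ogn, Dcn, Lum and Prelp, and on both sides of 0 for Aspn, Kera, Epyc, Optc and Fmod.

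Across the 10 other leucine-rich proteoglycan genes kept, of 11 listed, the median log2 fold change was 0.08. Only Ecm2 and Omd had all knockout arrays above the wild type array, where 24.2% of all genes kept did. None of the 10 passed the limma threshold adjusted over all genes. Ecm2 and Omd were higher at an unadjusted limma p under 0.05, against 1.72% of all genes kept. As Omd was kept only through its knockout arrays, its place in both counts is not support. The list of HtrA and inter-alpha-trypsin genes, to which Islr2 was added as a relative of Islr, gave a median of 0.01 over 9 genes, the value of Islr2 itself. Of the 9, 1 read higher and 2 lower than wild type in each knockout heart, against 24.2% and 24.2% of all genes kept. In this list Htra4, another secreted serine protease of the HtrA family, read 8.01, 8.18 and 8.29 on the knockout arrays, against 7.43 on the wild type array (log2 fold change 0.73, SE 0.19, limma adjusted p = 0.559). Htra2 read 7.62, 7.49 and 7.40 on the knockout arrays, against 7.71 on the wild type array (log2 fold change -0.21, SE 0.18, limma adjusted p = 0.964). Htra1 read 9.14, 9.06 and 8.96 on the knockout arrays and 9.0 on the wild type array, and Itih1, Itih2, Itih3 and Itih4 had log2 fold changes between -0.14 and 0.12.

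The ADAMTS-like and ADAMTS genes, relatives of Adamtsl2, had a median log2 fold change of 0.02 over 15 genes. Of these, 5 read higher and 4 lower than wild type in each knockout heart, near the 24.2% and 24.2% of all genes kept. Papln, the gene of the ADAMTS-like protein papilin, read 7.34, 7.25 and 7.90 on the knockout arrays, against 6.80 on the wild type array (log2 fold change 0.70, limma adjusted p = 0.844). Adamts4, a protease that cleaves large proteoglycans, read 5.15, 5.16 and 5.78 on the knockout arrays, against 6.15 on the wild type array (log2 fold change -0.79, limma adjusted p = 0.782). Neither passed the threshold.

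The collagens to which the proteoglycans bind, fibrillar and other, had another pattern. Col1a1, a chain of type I collagen, read 10.10, 10.66 and 12.11 on the knockout arrays, against 11.58 on the wild type array. Knockouts 1 and 2 lay below the wild type array and knockout 3 above it, so knockouts 1 and 2 stood apart as in the sex-linked split. Of 10 collagen genes, 2, Col6a2 and Col14a1, read higher than wild type in all 3 knockout hearts, against 24.2% of all genes kept. The median log2 fold change of the 10 was -0.50. Their median difference from the wild type array was -1.135 on knockout 1, -0.805 on knockout 2 and 0.605 on knockout 3. For the 6 leucine-rich proteoglycans of the set the same medians were 0.16, 0.67 and 0.76.

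Set against Col1a1 on the same array, all 10 genes stood higher on knockouts 1 and 2 than on the wild type array. Col1a1 itself read lower there, at 10.10 and 10.66 against 11.58. A gene with little change therefore also stands higher against it, as does Bgn, which read lower on both. The count of 10 is thus not evidence about the set. The difference between the gene and Col1a1 exceeded that of the wild type array by 1.07 for Bgn to 2.73 for Htra3 on knockout 1. On knockout 2 it exceeded it by 0.70 for Bgn to 2.43 for Itih5. On knockout 3 the values ran from -0.19 for Dcn to 0.91 for Adamtsl2. These differences show unequal change of the paired genes within an array and do not by themselves say which of them moved. They also carry the split of Col1a1 between knockouts 1 and 2 and knockout 3, which is that of the sex-linked transcripts.

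**Figure D3:**
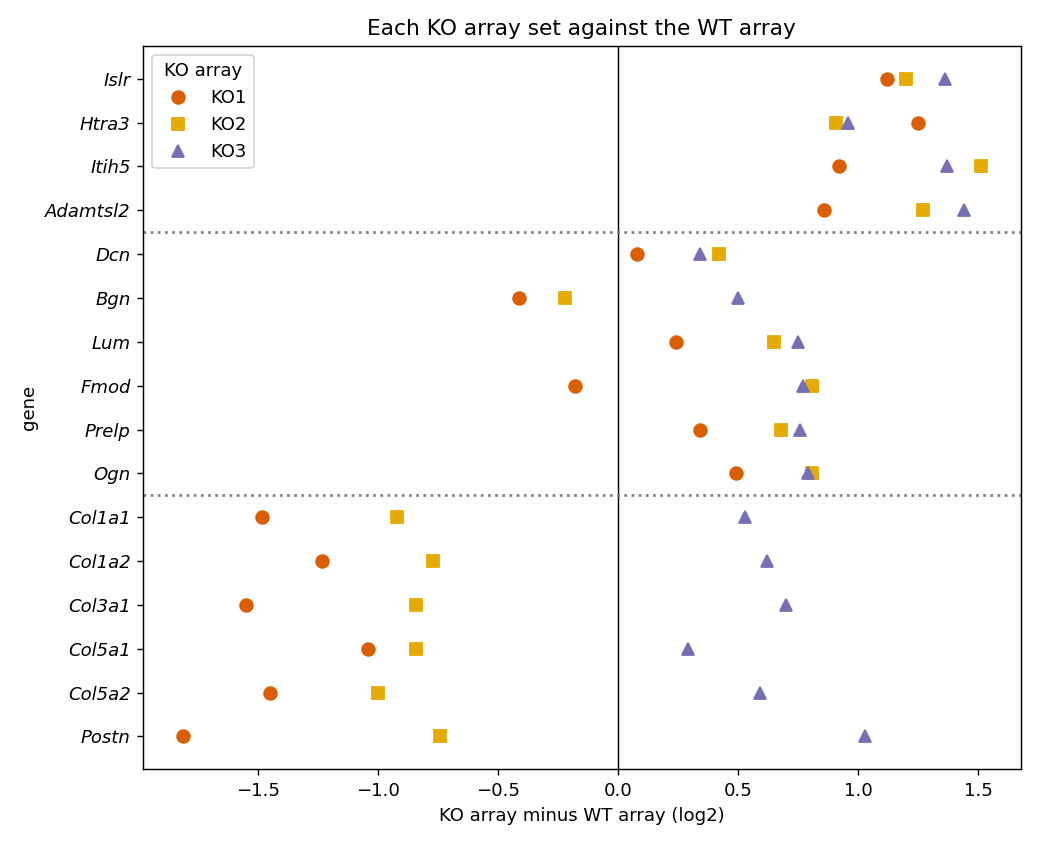
Difference between each KO array and the WT array (log2, x axis) for the 10 genes and, under the lower dotted line, for 5 fibrillar collagen genes and Postn. The symbols of Islr, Htra3, Itih5 and Adamtsl2 all lie to the right of 0.8, and those of the collagen genes lie left of 0 for KO1 and KO2 and right of it for KO3.

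None of the 124 genes kept in 9 related lists passed the adjusted limma threshold. At an unadjusted p under 0.05 there were 7 higher, Omd among them, against 1.72% of all genes kept, and 9 lower, against 3.87%. Among the receptors, ligands and proteases that act with leucine-rich proteoglycans, 1 of 17 genes read higher and 5 lower than wild type in each knockout heart. The shares over all genes kept were 24.2% and 24.2%. Mmp2, a gelatinase that can cleave decorin, read 9.25, 9.60 and 9.98 on the knockout arrays, against 8.61 on the wild type array (log2 fold change 1.00, SE 0.28, limma adjusted p = 0.596). Mmp3, the gene of stromelysin-1, read 6.59, 6.58 and 5.94 on the knockout arrays, against 7.96 on the wild type array (log2 fold change -1.59, SE 0.28, limma adjusted p = 0.343).

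The TGF-beta genes, whose products decorin and asporin bind, did not share the direction of the 4 secreted proteins. Tgfb2 read 6.30, 6.59 and 6.71 on the knockout arrays, against 7.69 on the wild type array (log2 fold change -1.16, SE 0.21, limma adjusted p = 0.361). Tgfb1 read 8.57, 8.62 and 9.12 on the knockout arrays, against 9.25 on the wild type array (log2 fold change -0.48, SE 0.25, limma adjusted p = 0.935). Tgfb3 read 7.74, 7.87 and 8.35 on the knockout arrays, against 8.07 on the wild type array. Met, a growth factor receptor that decorin binds, stood at -0.66 (log2, SE 0.20, limma adjusted p = 0.653), and Tlr2 and Tlr4 stood at -0.11 and -0.04.

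Genes of microfibrils and elastic fibres, the structures to which Adamtsl2 binds, had a median log2 fold change of 0.05 over 15 genes. Ltbp4, a latent TGF-beta binding protein of elastic fibres, read 10.53, 10.24 and 10.68 on the knockout arrays, against 9.83 on the wild type array (log2 fold change 0.65, SE 0.22, limma adjusted p = 0.715). Emilin1 read 7.19, 7.50 and 7.89 on the knockout arrays, against 8.07 on the wild type array. Ltbp1, a binding partner of Adamtsl2, read 8.29, 7.95 and 7.79 on the knockout arrays and 7.80 on the wild type array.

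Genes of hyaluronan, the ligand of the Itih family, had a median of -0.19 over 10 genes. Of these, 1 read higher and 5 lower than wild type in each knockout heart, against 24.2% and 24.2% of all genes kept. Cd44, a hyaluronan receptor also carried by leukocytes, read 6.26, 6.57 and 6.75 on the knockout arrays, against 7.44 on the wild type array (log2 fold change -0.91, SE 0.23, limma adjusted p = 0.544). Hapln3, a link protein gene, read 5.38, 5.16 and 5.67 on the knockout arrays, against 5.09 on the wild type array.

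The enzymes that build glycosaminoglycan chains gave a median of -0.12 over 20 genes, 2 of them higher and 7 lower in each knockout heart. Of all genes kept, 24.2% read higher and 24.2% lower in each knockout heart. Chst11, a chondroitin sulfotransferase, read 6.49, 6.31 and 6.39 on the knockout arrays, against 6.98 on the wild type array (log2 fold change -0.58, limma adjusted p = 0.651), and Chst15 stood at 0.26. Large and cell surface proteoglycans had a median of -0.23 over 18 genes, 4 of them higher and 7 lower in each knockout heart. The extremes with separated groups were Prg4, the lubricant proteoglycan 4, and Gpc3, an X-linked glypican. Prg4 read 7.64, 8.65 and 8.42 on the knockout arrays, against 9.47 on the wild type array (limma adjusted p = 0.632). Gpc3 read 6.70, 6.56 and 6.46 on the knockout arrays, against 5.93 on the wild type array (limma adjusted p = 0.596).

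**Figure D4:**
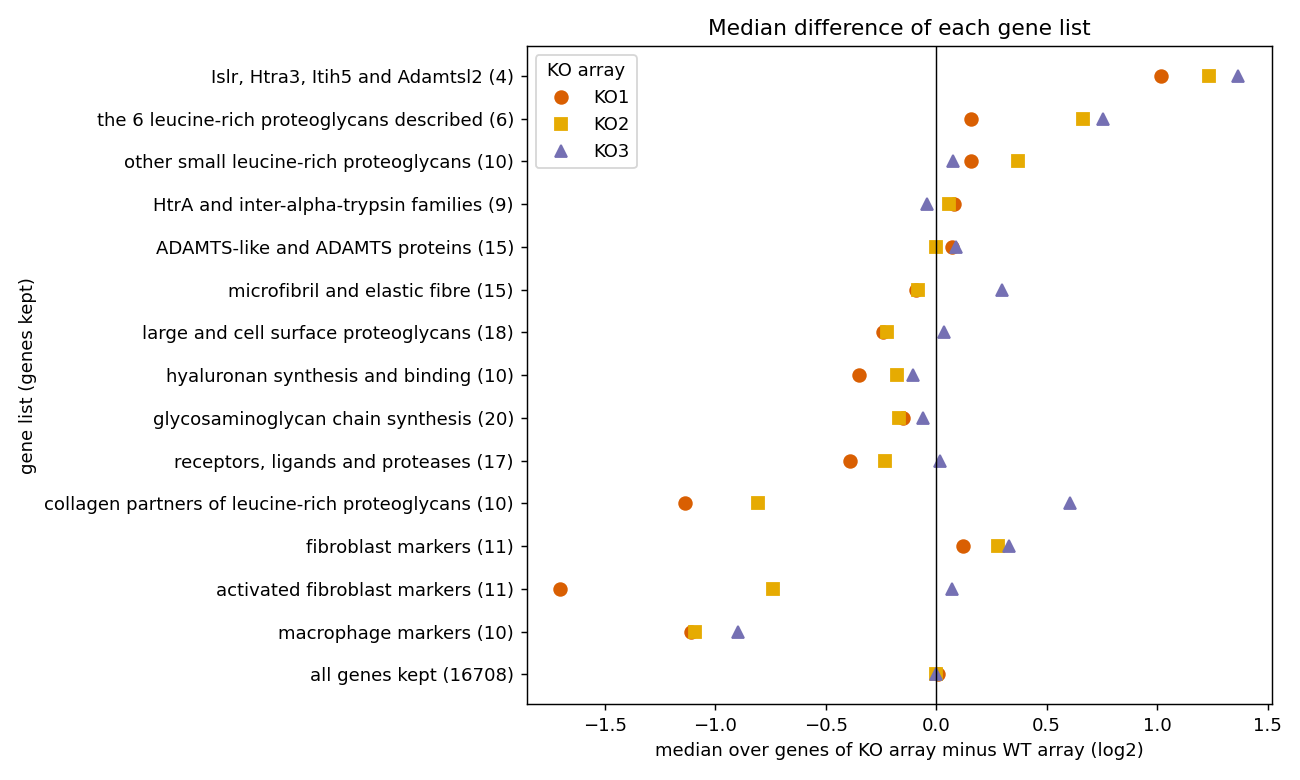
Median over the genes of each list of the difference between a KO array and the WT array (log2, x axis), with 1 symbol per KO array and the number of genes kept in brackets. The 4 secreted proteins lie beyond 1 on all 3 arrays, the collagen partners lie at -1.135, -0.805 and 0.605, and the median of all genes kept lies at 0.01 or less.

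Markers of stromal and other cells were read on the same arrays. In bulk tissue, fewer cells of a type and less RNA per cell cannot be told apart. In summed level, 11 fibroblast markers of 12 listed differed from wild type by -0.02, 0.02 and 0.25 on knockouts 1, 2 and 3. A summed level follows its brightest markers, here Vim and Gsn, and the median differences were 0.12, 0.28 and 0.33. Of the 11 markers, 4 read higher and 1 lower in each knockout heart, against 24.2% and 24.2% of all genes kept. Pdgfra, a receptor that marks fibroblasts, read 8.29, 8.54 and 8.57 on the knockout arrays, against 8.64 on the wild type array, and the fibroblast transcription factor gene Tcf21 read 7.68, 7.43 and 7.78 on the knockout arrays, against 7.45 on the wild type array. Dpep1, a dipeptidase gene, read 8.17, 8.01 and 7.28 on the knockout arrays, against 6.96 on the wild type array (log2 fold change 0.86, SE 0.34, limma adjusted p = 0.844). Pi16, a gene of adventitial fibroblasts, read 7.87, 7.73 and 8.47 on the knockout arrays, against 7.20 on the wild type array (log2 fold change 0.82, SE 0.29, limma adjusted p = 0.792). Dpt and Scara5 also read higher in each knockout heart, with log2 fold changes of 0.35 and 0.31 (limma adjusted p = 0.935 for each). Among the markers with overlapping groups, Vim (log2 fold change -0.39), Thy1 (-0.14) and Ddr2 (-0.08) had a lower knockout mean. Gsn (0.44), Cd34 (0.31) and Tcf21 (0.18) had a higher one. Ly6a was the listed marker not among the genes kept.

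Markers of activated fibroblasts differed by -1.63, -0.97 and 0.26 in summed level, with 1 of 11 higher and 5 lower than wild type in each knockout heart. For this and the next counts, the shares over all genes kept were 24.2% higher and 24.2% lower. Postn, a matrix protein of activated fibroblasts, read 8.85, 9.92 and 11.69 on the knockout arrays, against 10.66 on the wild type array. The 5 activated fibroblast markers that read lower in each knockout heart were Tnc (log2 fold change -2.96), Lox (-2.34), Cthrc1 (-1.85), Meox1 (-1.43) and Acta2 (-0.76), with limma adjusted p from 0.449 for Tnc to 0.883 for Cthrc1. Of the others, Cilp (0.37), Comp (0.18) and Fap (0.18) had a higher knockout mean. Fn1 (-1.04), Postn (-0.51) and Thbs4 (-0.28) had a lower one. The summed macrophage markers differed by -0.98, -1.0 and -0.60 with 10 of 10 lower in each knockout heart, and the summed endothelial markers differed by 0.11, 0.13 and 0.44 with 6 of 10 higher. Mural cell markers differed by 0.18, 0.18 and 0.23, mesothelial markers by -0.05, -0.18 and -0.07, and valve and cartilage-like markers by 0.12, 0.56 and -0.19. Adipocyte markers differed by 0.12, 0.20 and 0.49, atrial cardiomyocyte markers by -1.19, -1.11 and 0.07, and cardiomyocyte markers by 0.09, 0.11 and -0.01. Schwann cell markers differed by 0.16, 0.09 and 0.09 and lymphocyte markers by -0.07, -0.02 and 0.14. The summed levels follow the brightest marker, which was Fabp4 in the adipocyte list and Nppa in the atrial list. On knockouts 1, 2 and 3 the median differences were 0.29, 0.50 and -0.01 for the adipocyte list. For the atrial list they were -0.04, -0.955 and -0.255. Of the atrial markers, Bmp10 was not among the genes kept. The part of cell composition in the differences of the 10 genes was not tested.

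The genes whose course over the 4 arrays was most like that of Islr, by the root mean square difference of centred profiles, were Ces2e (0.08), Adamtsl2 (0.14), Igfbp6 (0.14), Car4 (0.18) and Itih5 (0.18). Igfbp6, which encodes a secreted binding protein of insulin-like growth factors, read 8.27, 8.50 and 8.85 on the knockout arrays, against 7.49 on the wild type array. The 5 genes nearest to Dcn were Rax, Gm10125, Alox12e, 2810025M15Rik and Atox1, at 0.01 to 0.02. The course of Dcn spans 0.42 in all, and likeness over 4 arrays is given as a description. Among the 10 genes, Lum, Prelp and Ogn lay within 0.10 of each other, and Itih5 and Adamtsl2 within 0.12, while Bgn and Itih5 lay farthest apart at 0.64.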

How the data were processed

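Biotin-labelled RNA of 3 MAFbx KO hearts and 1 wild type heart was measured on Affymetrix arrays. The authors deposited log2 values made with Affymetrix Expression Console and RMA, per the submitters' processing notes. No version or array build is given in the sources used here. RMA equalises the distributions of the arrays and thereby removes any shift common to most genes. Array medians over all 35556 probe sets ran from 5.57 to 5.63.

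Of the probe sets, 21789 had 1 gene symbol in the platform annotation, 1621 had several and 12146 were unnamed here. The brightest probe set stood for each of 999 genes with several. Those whose 4-array mean fell below the 25th percentile of all (4.10) were left out. The genotype contrast was fitted with limma 3.58.1 under R 4.3.3 (two-sided, Benjamini-Hochberg over 16708 genes, threshold 0.05), with 2 residual and 5.05 prior degrees of freedom. The fit was tested on simulated data. With 1 array against 3, the smallest p of an exact permutation test is 0.25, and precision is limited by how few arrays there are.

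The 10 genes, the 9 related lists, the 12 marker lists and the naming rule were chosen with earlier results of these data known. Comp and Hapln1 each stand in 2 lists. Genes were named as follows: the 10 genes, Fbxo32, the largest separated rise and fall of each related list, and a fixed set of TGF-beta, collagen and fibroblast genes; Ecm2, Aspn, Kera, Epyc, Optc, Islr2, Htra1, the 4 other Itih genes, Hmox1, Met, Tlr2, Tlr4, Col6a2 and the fibroblast markers other than Pdgfra, Tcf21 and Postn were named after their values were seen. Fabp4 and Nppa were also named after their values were seen. Fbn1 was not analysed here. The GRCm38.p6 RefSeq tables gave chromosomes, neighbours and promoter sequences. Alternatives were renewed quantile normalization, median centring, other filters, the mean of probe sets, other variance models, other thresholds, leaving out each knockout array, a covariate for Xist and knockout 3 alone; a filter at the 25th percentile of named probe sets was added after seeing the data.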

Additional observations from a re-analysis of the deposited data

How the results depend on the processing

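The median log2 fold change of the 10 genes, 0.65, stayed between 0.58 and 0.80 under all alternatives run. The number of genes called over the whole table did not hold: it was 1, and became 0 after renewed quantile normalization, without a filter on dim probe sets and with Xist as a covariate, 3 with the filter at the 50th percentile, 7 with an intensity trend and 9 with robust moderation, and 8 with the arrays centred on their medians. It was 0 without each of knockouts 1, 2 and 3 in turn, 9 at an adjusted p under 0.1 and 934 at an unadjusted p under 0.05; the cause was not tested. The number called among the related lists was 0 under every fit run at an adjusted p under 0.1 or less, and 16 at an unadjusted p under 0.05. Many alternatives could hardly move the values of the 10 genes. Each gene has 1 probe set that passed every filter, so the filter and probe set settings left its value unchanged. Leaving out a knockout array shifts the knockout mean by less than the knockout SD by arithmetic. The Xist covariate and knockout 3 alone give the same value. Of 110 alternative values of the 10 genes, 106 moved by less than the SD of the knockout arrays, which for these reasons says little about robustness. Bgn changed sign in 5, to 0.03 after renewed quantile normalization (0.025), 0.14 without knockout 1, 0.05 without knockout 2 (0.045; -0.315 without knockout 3) and 0.50 both with Xist as a covariate and in knockout 3 minus the wild type array; Islr moved to 1.36 in the last pair. For each related list the SD used was that of its median difference from wild type over the 3 knockout arrays. Of 99 medians of related lists 12 moved by that SD or more, the collagen partners to 0.605 in knockout 3 minus the wild type array. No paired analysis was possible because the genotypes share only replicate number 1. With 1 wild type array, every difference also carries the error of that single array.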
